A study of Rattus norvegicus with 6 samples.

Results

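The carrier and enzymes of the route from cholesterol to androgens, with relatives and later steps, were followed in primary rat Leydig cells. These are the testosterone-producing cells between the seminiferous tubules of the testis. The set holds 10 genes, chosen by name: Star, Cyp11a1, Hsd3b1, Hsd3b5, Cyp17a1, Hsd17b3, Srd5a1, Akr1c14, Por and Cyp19a1. A probe was matched to 9 of them, which are among 15168 genes that the array's RefSeq accessions name. No probe was matched to Cyp19a1, the aromatase that turns androgens into estrogens, so it is not analysed here. Of the 9, 8 passed the filter on dim signals and were tested, among 10971 genes.

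Exosomes are small vesicles that cells release, and those used here came from primary rat Sertoli cells, which nurse the germ cells inside the tubules. In the series 3 samples of Leydig cells were given such exosomes (5 µg/ml, 24 h), and 3 samples were given none and are called untreated. All cells came from Sprague-Dawley rats and grew at 34 °C and 5% CO2 in medium that held 10% fetal bovine serum. The labels number the replicates 1 to 3 but name no animal or culture for any of them, so the spread behind each p-value is that between samples and may be technical. The labels name no addition of luteinizing hormone or another stimulus of steroid synthesis in either group.

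Steroid synthesis starts when Star moves cholesterol to the inner mitochondrial membrane, where Cyp11a1 cuts the side chain to give pregnenolone. Enzymes of the 3-beta-hydroxysteroid dehydrogenase family, such as Hsd3b1, then make progesterone, Cyp17a1 makes androstenedione from it, and Hsd17b3 makes testosterone. Srd5a1 and Akr1c14 reduce androgens further, a route that is prominent in immature Leydig cells, and Por passes electrons to Cyp17a1 and the other P450 enzymes of the endoplasmic reticulum.

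The bases around the starts of these genes are shown because 4 of the 6 members with a RefSeq promoter window (assembly GRCr8) passed the test as lower. Among all tested genes 29.2% were lower. Srd5a1 and Por, 2 of the 4, did not pass under every way of scaling the arrays, as given below. Each window runs 5′ to 3′ on the gene's strand, from 250 bases before to 50 bases after the start. Capitals mark AGGTCA or its reverse complement TGACCT, the half-site read by steroidogenic factor 1 (Nr5a1) and other nuclear receptors. The windows of Cyp11a1, Srd5a1, Akr1c14 and Por belong to genes that fell, and that of Hsd3b1 to a gene that did not pass the test.
Cyp11a1 promoter, chr8:67318415-67318714, plus strand: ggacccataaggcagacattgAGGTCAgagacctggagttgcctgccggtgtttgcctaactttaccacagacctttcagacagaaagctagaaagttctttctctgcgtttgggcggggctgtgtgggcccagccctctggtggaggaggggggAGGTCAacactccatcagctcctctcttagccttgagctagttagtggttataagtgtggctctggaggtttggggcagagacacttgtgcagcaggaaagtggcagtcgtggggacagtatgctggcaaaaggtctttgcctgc
Srd5a1 promoter, chr1:35514664-35514963, plus strand: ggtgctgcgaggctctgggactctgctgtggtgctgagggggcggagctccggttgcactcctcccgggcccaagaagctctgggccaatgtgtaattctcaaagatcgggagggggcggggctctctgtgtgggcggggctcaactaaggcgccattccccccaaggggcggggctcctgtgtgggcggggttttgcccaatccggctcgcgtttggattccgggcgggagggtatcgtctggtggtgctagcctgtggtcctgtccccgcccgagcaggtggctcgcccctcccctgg
Akr1c14 promoter, chr17:71083135-71083434, minus strand: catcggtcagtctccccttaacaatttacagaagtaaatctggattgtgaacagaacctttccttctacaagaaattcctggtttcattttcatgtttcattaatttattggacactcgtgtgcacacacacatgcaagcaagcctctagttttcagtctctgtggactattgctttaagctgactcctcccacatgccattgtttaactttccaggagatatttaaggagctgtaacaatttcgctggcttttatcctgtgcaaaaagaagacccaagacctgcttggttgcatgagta
Por promoter, chr12:26635760-26636059, minus strand: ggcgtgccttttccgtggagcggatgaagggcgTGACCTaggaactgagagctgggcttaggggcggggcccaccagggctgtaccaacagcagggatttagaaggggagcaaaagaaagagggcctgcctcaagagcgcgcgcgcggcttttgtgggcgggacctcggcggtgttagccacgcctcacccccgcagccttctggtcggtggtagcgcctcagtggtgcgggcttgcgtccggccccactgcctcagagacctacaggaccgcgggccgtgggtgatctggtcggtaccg
Hsd3b1 promoter, chr2:188864645-188864944, minus strand: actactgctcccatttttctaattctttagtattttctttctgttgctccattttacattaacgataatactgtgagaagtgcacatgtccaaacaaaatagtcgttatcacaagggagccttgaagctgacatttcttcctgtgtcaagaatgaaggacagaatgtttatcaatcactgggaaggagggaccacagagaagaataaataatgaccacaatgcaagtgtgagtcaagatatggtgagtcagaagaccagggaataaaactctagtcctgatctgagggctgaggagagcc
The Cyp11a1 window held AGGTCA 2 times, starting 229 and 95 bases upstream of the gene's start, and the Por window held TGACCT 217 bases upstream. Of all 33469 windows of this length in the RefSeq table, 16.2% held the half-site on either strand, against 3 of 6 members (Cyp11a1, Por and Hsd17b3). The GATA core, searched as GATAA or TTATC, stood in the windows of Hsd3b1 and Akr1c14 and in 26.5% of all windows. The GC box, GGGCGG or CCGCCC, stood in those of Cyp11a1, Srd5a1 and Por and in 33.1% of all. TATAAA or TTTATA stood in none of the 6 and in 14.2% of all windows. No match overlapped a match of another motif in these 6 windows, and a match is only a description of the letters.

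The scanner software marks a spot as well above background when its signal clearly exceeds its surroundings. That mark was given to 67.2% to 75.6% of gene spots per array, and saturation was found in 0 spots. Of the processed intensities, the 75th percentile ranged from 753 to 872 on untreated arrays and from 860 to 1061 on exosome arrays. Normalized values are log2 intensities minus the log2 of that percentile, and a change is the exosome mean minus the untreated mean on this scale, with the standard error (SE) of limma's model and n = 3 per group. The test is limma's, with the Benjamini-Hochberg adjustment over 20409 probes, and a gene is past it below 0.05. Arrays were put in 1 scan when the scan date and the barcode in their file headers were both the same. The 3 untreated arrays were in 1 scan, exosome 1 and 2 in another and exosome 3 in another still. Scan, marked in this way, and group cannot be told apart. In these bulk samples fewer cells of a type and less RNA per cell cannot be told apart either. Of the defining Leydig cell genes, Insl3, Star, Cyp11a1 and Hsd3b1 were well above background on all 6 arrays (Insl3 had a change of −0.29, adjusted p = 0.123), while Lhcgr, the luteinizing hormone receptor, and Nr5a1 were above it on 0.

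Messenger RNA of 5 of the 8 tested genes was lower in exosome-treated cells: Cyp11a1, Hsd3b5, Srd5a1, Akr1c14 and Por. Their changes lay between −1.36 and −0.67. Star, Hsd3b1 and Cyp17a1 did not pass the test. No member was higher: limma gave 0, with 0 at an unadjusted p below 0.05 and 0 with a trended and robust moderation. Over all tested genes 29.2% were lower and 14.6% higher by the same rule. The median change was −0.77 over the 8 members and −0.19 over all genes. Quantile normalization, which moved the median of all genes to 0.01, called 3 members lower and 0 higher, against 16.1% of all genes lower and 20.2% higher, and gave a member median of −0.45. limma on the authors' deposited table also gave 3 members lower and 0 higher, against 16.3% and 20.3% of all genes.

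**Figure D1:**
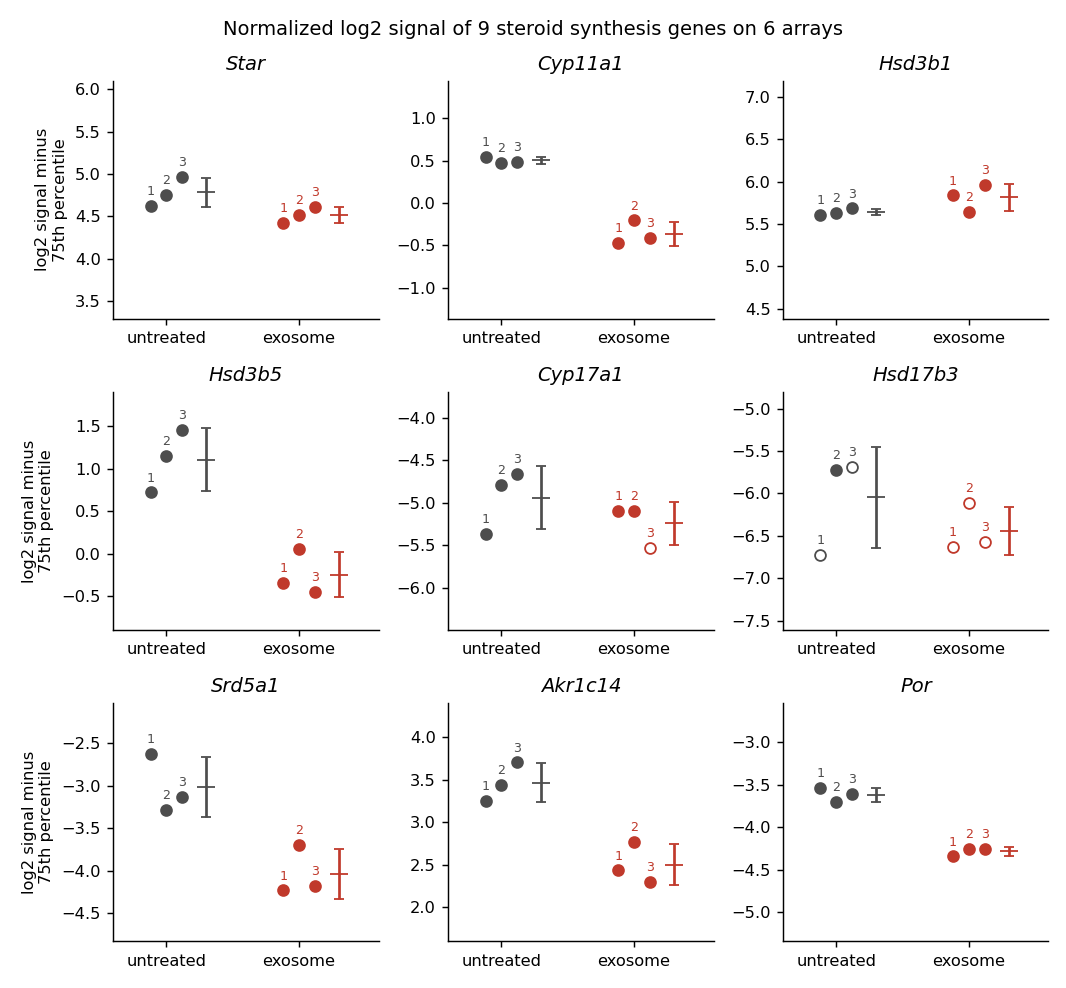
Normalized log2 signal (log2 intensity minus the array's 75th percentile) of 9 steroid synthesis genes on 3 untreated and 3 exosome arrays, with the mean and SD (n = 3) beside the points and replicate numbers above them; open points were not well above background, and each panel spans the same range of log2 units. In Cyp11a1, Hsd3b5, Srd5a1, Akr1c14, Por and Star the exosome arrays lie below the untreated ones, while in Hsd3b1, Cyp17a1 and Hsd17b3 the groups overlap.

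Star, the first member of the route, gave processed intensities of 21536, 21058 and 23511 on untreated arrays 1 to 3, and of 21583, 24297 and 21011 on exosome arrays 1 to 3. The raw intensities of the groups overlapped. After scaling, the means were 4.78 ± 0.17 and 4.52 ± 0.09 (SD, n = 3), with all exosome arrays below all untreated ones, but only just, at 4.61 for exosome 3 against 4.63 for untreated 1. The change of −0.26 ± 0.13 (SE) did not pass the test (adjusted p = 0.149), and its 95% interval ran from −0.58 to 0.06. In the log2 values of the authors' deposited table, exosome 2 (14.51) lay above untreated 1 (14.41), so there the groups overlapped.

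Cyp11a1, the enzyme that commits cholesterol to steroids, had intensities of 1275, 1082 and 1053 in untreated cells and 724, 921 and 647 after exosomes. The groups did not overlap, and exosome 2 lay nearest to the untreated level. Its normalized mean was 0.50 ± 0.04 in untreated and −0.36 ± 0.14 in exosome-treated cells (SD, n = 3). This is a fall of 1.82-fold (change −0.86 ± 0.12, adjusted p = 0.0098). The untreated SD of 0.04 stood beside a median of 0.16 over all tested genes. The authors' deposited table gave 10.35, 10.30 and 10.31 against 9.40, 9.66 and 9.43, again without overlap.

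Of the 3-beta-hydroxysteroid dehydrogenases, Hsd3b5 fell and Hsd3b1 did not pass the test. Hsd3b1 gave intensities of 42540, 38558 and 38716 on untreated arrays and of 57396, 53078 and 53551 on exosome arrays. These raw intensities were higher on every exosome array. After scaling to the 75th percentile the groups overlapped. The normalized means were 5.64 ± 0.04 and 5.81 ± 0.16 (SD, n = 3), with exosome 2 (5.65) among the untreated arrays, and the change of 0.17 ± 0.13 missed the test (adjusted p = 0.291, 95% interval −0.13 to 0.47). In the authors' deposited table its untreated values of 15.40, 15.40 and 15.44 lay below exosome values of 15.63 to 15.65, and limma on that table gave 0.23 ± 0.09 with an adjusted p of 0.084.

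Hsd3b5 fell furthest among the tested members. It is listed as a member of the family, and which reaction it carries out was not measured here. No change of the progesterone step can be read from Hsd3b5. The intensities of its brighter probe were 1437, 1727 and 2064 on untreated and 789, 1101 and 629 on exosome arrays. The groups did not overlap, and untreated 1 and exosome 2 were the closest arrays. Its change was −1.36 ± 0.23, a 2.56-fold fall (adjusted p = 0.011). A second probe of Hsd3b5 was above background on 0 of 6 arrays, with intensities of 3.24 to 4.75, and could not check the first. Genes of this family are close copies of each other, so how far each probe reads the other members is uncertain. Probe sequences were not used here.

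Cyp17a1, the enzyme that opens the way to androgens, was dim. Its intensities were 21.2, 28.2 and 29.8 on untreated and 29.4, 31.1 and 18.6 on exosome arrays, and exosome 3 was not well above background. The lowest signals that counted as well above background lay between 10.6 and 17.9 on the 6 arrays. The groups overlapped, and the change of −0.30 ± 0.23 missed the test (adjusted p = 0.313, 95% interval −0.85 to 0.24). The change was positive after quantile normalization (0.20) and for limma on the authors' deposited table (0.20), so no direction can be given.

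Hsd17b3, the testicular enzyme that makes testosterone, was well above background on 1 array, untreated 2, and was not tested. Its intensities were 8.23, 14.7 and 14.6 on untreated and 10.1, 15.3 and 9.03 on exosome arrays, so a difference between the groups was not detectable at this signal.

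Srd5a1 and Akr1c14, which reduce androgens and their products, both fell. Srd5a1, a steroid 5-alpha-reductase, gave 142, 79.6 and 85.7 on untreated and 53.3, 81.6 and 47.3 on exosome arrays. In raw intensities exosome 2 lay between untreated 2 and untreated 3, whereas after scaling all exosome arrays were below all untreated ones. The change was −1.02 ± 0.23 (2.03-fold lower, adjusted p = 0.017). It was −0.65 and missed the test with quantile normalization (adjusted p = 0.092) and for limma on the authors' deposited table (adjusted p = 0.090). Its other probe was above background on untreated 2 only, with 11.1 to 15.4 on untreated and 4.32 to 11.5 on exosome arrays. Limma missed the test for Srd5a1 without untreated 3 (−1.08, adjusted p = 0.054) and without exosome 1 (−0.93, adjusted p = 0.057).

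Akr1c14, a 3-alpha-hydroxysteroid dehydrogenase that works after the reductase, is spotted 10 times on each array, so its level rests on the most spots of any member. The geometric means of its spots were 8295, 8450 and 9826 on untreated and 5420, 7251 and 4229 on exosome arrays. The groups did not overlap. Spots of 1 array differed by an SD of 0.03 to 0.06 in log2, while the arrays of a group differed by 0.23 (untreated) and 0.24 (exosome), so the spread between arrays was the larger. The change was −0.96 ± 0.18 (1.95-fold lower, adjusted p = 0.012). Without untreated 2 it was −0.98 with an adjusted p of 0.051.

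Por, the electron donor, gave 75.2, 59.6 and 61.5 on untreated and 49.4, 55.6 and 44.9 on exosome arrays. The groups did not overlap, though untreated 2 and exosome 2 lay close in raw intensity. The normalized means were −3.62 ± 0.09 and −4.29 ± 0.05 (SD, n = 3). The change was −0.67 ± 0.11 (1.59-fold lower, adjusted p = 0.011). It was −0.26 and missed the test with quantile normalization (adjusted p = 0.159) and for limma on the authors' deposited table (adjusted p = 0.157).

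After scaling, the groups lay apart in 6 of the 8 tested members, each with the exosome arrays below. Among all tested genes 37.9% lay apart with the exosome arrays below, and 62.0% lay apart in either direction. In all 5 members that fell, exosome 2 was the highest exosome array on this scale. For Por it was so only just, at −4.254 against −4.259 for exosome 3. In the authors' deposited table exosome 3 (5.785) lay above exosome 2 (5.766) for Por. Exosome 2 was also the highest exosome array in 70.8% of the 3204 genes that were lower, so this order is shared with most of them.

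How far all genes moved depended on how bright they were. When the tested genes were ordered by mean signal and cut into 5 groups of equal size, the median change ran from −0.62 in the dimmest group over −0.41, −0.24 and 0.06 to 0.15 in the brightest. With quantile normalization the climb was smaller, from −0.11 over −0.05, −0.06 and 0.08 to 0.13. Por and Srd5a1 lie in the second dimmest group, where 39.1% of genes were lower. Cyp11a1 and Hsd3b5 lie in the second brightest, with 22.5% lower. Akr1c14, Star and Hsd3b1 lie in the brightest, with 12.03% lower, and Cyp17a1 lies in the dimmest. The median of the group was positive for Cyp11a1, Hsd3b5 and Akr1c14 and negative for Por and Srd5a1. All 5 were called lower, so how their sign compares with that median is no separate result. The part of signal level in the changes of the members was not tested.

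**Figure D2:**
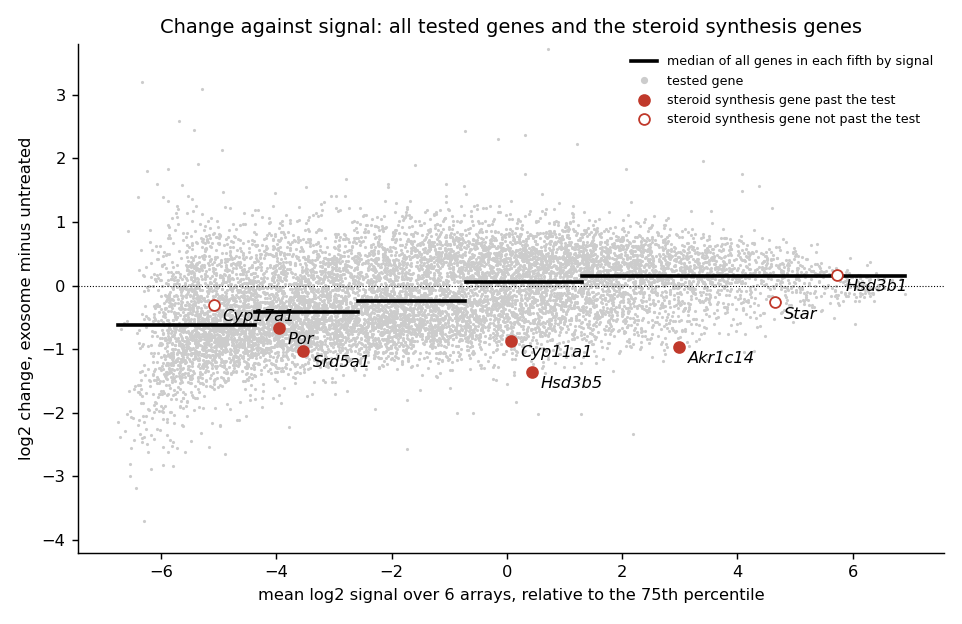
Change (exosome minus untreated, log2) against mean log2 signal relative to the 75th percentile, for 10971 tested genes (grey), with the median change of each of 5 groups of equal size by signal (black bars) and 8 steroid synthesis genes in red, filled where they passed the test. The black bars climb from −0.62 to 0.15, and each of the 5 filled red points lies below the bar of its group. All 5 are filled for passing the test as lower, so that position is no separate result.

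The way arrays were put on 1 scale mattered for the dim members. Cyp11a1, Hsd3b5 and Akr1c14 passed the test under each of the 6 ways tried, with changes of −0.86 to −0.63, −1.36 to −1.13 and −1.003 to −0.73. Por and Srd5a1 passed it in 4 of the 6, as given above. Star stayed below 0 and Hsd3b1 above 0 in all 6, with ranges of −0.26 to −0.04 and 0.17 to 0.40, and neither passed the test in any.

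**Figure D3:**
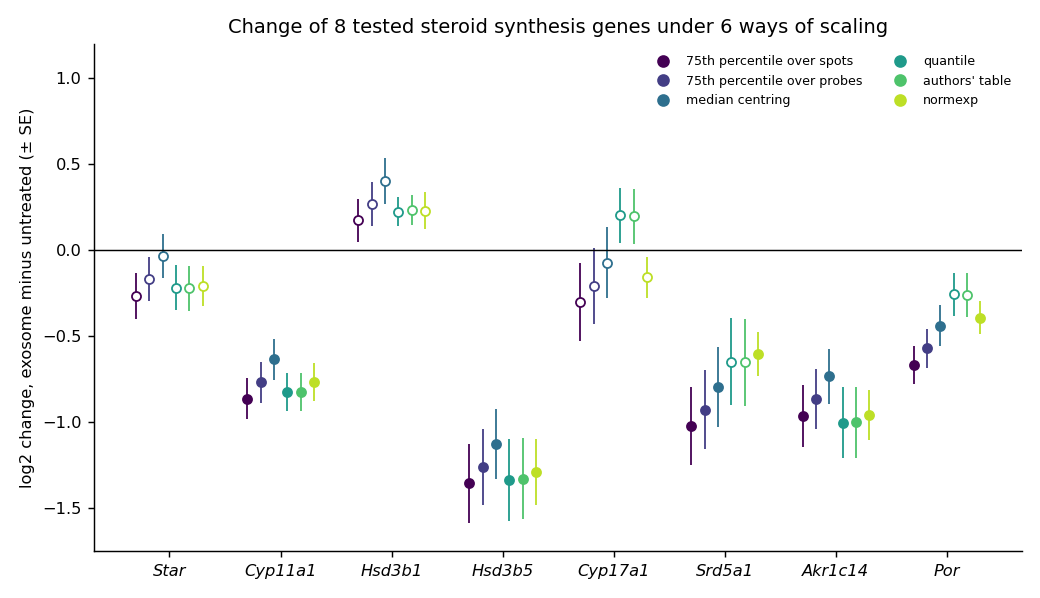
Change (exosome minus untreated, log2, ± SE) of the 8 tested genes under 6 ways of scaling the arrays; filled points passed the test at an adjusted p below 0.05. Cyp11a1, Hsd3b5 and Akr1c14 are filled throughout, Por and Srd5a1 are open for quantile normalization and for the authors' table, and Cyp17a1 changes sign.

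Differences between members within 1 array do not depend on a factor that scales the whole array. With 3 arrays against 3, the exact two-sided permutation test cannot go below 0.10, so by this test no pair can pass 0.05 whatever its size, and 7 pairs were compared. The difference of Hsd3b1 minus Cyp11a1 changed by 1.04, with exosome arrays at 1.17, 0.71 and 1.23 and untreated arrays at −0.08, 0.02 and 0.06 relative to the untreated mean (exact p = 0.10, 0.175 after Benjamini-Hochberg). Those groups did not overlap. Cyp11a1 changed by −0.60 against Star, with exosome arrays at −0.62, −0.44 and −0.74 and untreated ones at 0.20, −0.0017 and −0.20 (exact p = 0.10, adjusted 0.175). Hsd3b5 changed by −1.53 against Hsd3b1, again without overlap (exact p = 0.10, adjusted 0.175). These 3 differences kept their sign with normexp, with quantile normalization and in the authors' deposited table, at 0.996 to 1.06 for Hsd3b1 minus Cyp11a1, −0.61 to −0.56 for Cyp11a1 minus Star and −1.56 to −1.52 for Hsd3b5 minus Hsd3b1.

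The pairs with Cyp17a1 rest on a dim probe that was not well above background on exosome 3. Srd5a1 changed by −0.72 against Cyp17a1 (exact p = 0.10, adjusted 0.175), with untreated 1 far above the other untreated arrays at 0.82. Without that array the difference was −0.31. Cyp17a1 against Hsd3b1 (−0.47) and Por against Cyp17a1 (−0.37) overlapped between groups (exact p = 0.30 each, adjusted 0.35). Akr1c14 against Srd5a1 differed by 0.06 (exact p = 1), and its sign turned with the scaling.

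**Figure D4:**
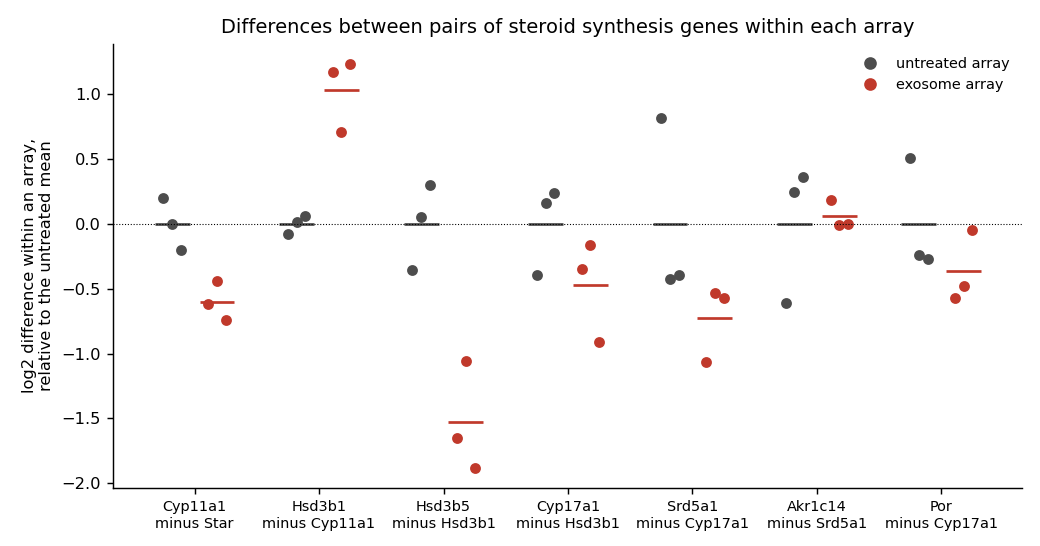
Log2 difference between pairs of members within each array, relative to the mean of the 3 untreated arrays; points are arrays and bars are group means. The exosome arrays lie apart from the untreated ones for Cyp11a1 minus Star, Hsd3b1 minus Cyp11a1, Hsd3b5 minus Hsd3b1 and Srd5a1 minus Cyp17a1, and the groups overlap for the other pairs; Cyp17a1 was not well above background on exosome 3.

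Other genes that handle steroids or serve the pathway moved both ways. Of 56 listed in 7 role groups, 51 had a probe and 39 were tested, of which 7 rose and 8 fell by their brightest probe, against 14.6% and 29.2% of all genes. Of the 8, Lipe and Ugt2b15 entered the test through the untreated arrays alone, with 0 exosome arrays above background. The role groups were those of cholesterol entry, electron supply, further 3-beta and 17-beta hydroxysteroid dehydrogenases, other steroid reductases, conjugation, and the adrenal branch. Many of these calls were lost when an array was left out, as were many among all genes. Over these fits the change of Stard4 ran from 0.71 to 0.88 and that of Akr1c13 from 0.84 to 1.17. Without untreated 2, 13 of the 15 were lost, leaving 0 higher and 2 lower, and calls among all genes went from 1597 to 134 higher and from 3204 to 818 lower. Leaving out untreated 3 gave 1 higher and 2 lower, leaving out exosome 1 gave 2 and 2, and leaving out exosome 3 gave 4 and 5. In 2 genes, Cyb5r3 and Ugt2b15, the call held no matter which of the 6 arrays was removed. For Ugt2b15 this is no separate support, since the filter let it in on its untreated arrays.

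Of 8 genes of cholesterol entry, 3 rose and 1 fell. Stard3, a late endosomal relative of Star, rose by 1.02 ± 0.30 (adjusted p = 0.035), Stard4, a cytosolic sterol carrier, by 0.77 ± 0.14 (adjusted p = 0.012), and Vdac1, the channel of the outer mitochondrial membrane, by 0.51 ± 0.16 (adjusted p = 0.040). A second probe of Stard4 had −0.14 (adjusted p = 0.413). Lipe, the hormone-sensitive lipase that frees stored cholesterol, was above background on 3 untreated arrays and 0 exosome arrays. The filter thus let Lipe in through the untreated arrays alone, and its p-value is not independent of that filter. Against the lowest signal well above background on each exosome array, Lipe was 1.66-fold lower (adjusted p = 0.043 by limma). That figure is for the 75th percentile scaling and is no strict bound. Cyp17a1 on exosome 3, at 18.6 against a lowest marked signal of 17.9, lacked the mark. Over the 6 ways of scaling the change of Lipe ran from −1.71 to −0.42. Lipe missed the test under 4 of the other 5 scalings. Tspo, of the outer mitochondrial membrane, had 0.10 ± 0.11. For Scarb1, the lipoprotein receptor, the brighter probe had 0.37 (adjusted p = 0.192) and the other one −0.91 (adjusted p = 0.0098).

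Among 7 genes of electron supply, the brightest probe rose in 2, whose other probes did not follow it, and fell in 2. Fdx1 and Fdxr, the mitochondrial ferredoxin and its reductase that serve Cyp11a1, had 0.11 ± 0.11 and 0.11 ± 0.14 (adjusted p = 0.440 and 0.539). Neither passed the test, and whether they differ from Por in their change was not tested. Cyb5a, the cytochrome b5 that helps Cyp17a1, had −0.34 ± 0.15 (adjusted p = 0.109). Cyb5r3, which reduces cytochrome b5, fell by 1.12 (SE 0.17, adjusted p = 0.010). Cyb5b, of the outer mitochondrial membrane, fell by 0.76 (SE 0.19, adjusted p = 0.023), with its other probe at −0.70. Cyb5r1 rose by 1.49 ± 0.32 on its brighter probe (adjusted p = 0.016), but its other probe fell by 1.09 (adjusted p = 0.019), so no direction can be given for the gene. Pgrmc1, a heme protein that binds P450 enzymes, rose by 0.63 ± 0.15 on 1 of 3 probes (adjusted p = 0.021), and the others had −0.65 and −0.12.

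Of the further 3-beta-hydroxysteroid dehydrogenases, 0 of 2 tested rose by limma's test, with 1, Hsd3b3, past an unadjusted p below 0.05 and past the trended and robust moderation. Hsd3b3 had 0.37 ± 0.14 (adjusted p = 0.072). Hsd3b7, of bile acid synthesis, fell by 0.72 (SE 0.15, adjusted p = 0.015). Of 8 further 17-beta-hydroxysteroid dehydrogenases, Hsd17b8 fell by 0.52 (SE 0.11, adjusted p = 0.017) and the other 7 missed the test. With limma 0 of them rose (0 at an unadjusted p below 0.05), while quantile normalization gave 2 higher and 1 lower.

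The other reductases included 2 that rose and 1 that fell of 7 tested. Akr1c13 and Akr1c15, relatives of Akr1c14, rose by 0.999 ± 0.20 (adjusted p = 0.013) and 0.41 ± 0.12 (adjusted p = 0.037), and Akr1c12 and Akr1c19 had 0.08 and 0.11. These genes too are near copies, and cross-reading between probes is uncertain. Srd5a3, which serves dolichol synthesis, fell by 0.51 (SE 0.13, adjusted p = 0.022), and Srd5a2 had −0.56 (adjusted p = 0.067). Of 4 conjugation genes 2 fell and 0 rose in limma (0 at an unadjusted p below 0.05). Ugt2b15, which glucuronidates androgens, was above background on 3 untreated and 0 exosome arrays. It thus entered the test through the untreated arrays alone, and a fall is partly set by that filter. Against the lowest signal well above background on each exosome array, the signal of Ugt2b15 was 2.13-fold lower (adjusted p = 0.010 by limma, not independent of the filter). That figure is for the 75th percentile scaling and, as for Lipe, is no strict bound. Over the 6 ways of scaling the change of Ugt2b15 ran from −1.24 to −0.45. Of 3 adrenal genes, limma called 0 higher and 0 lower (0 and 1 at an unadjusted p below 0.05). Cyp11b1, which makes corticosterone, had −0.84 (adjusted p = 0.068) and Cyp21a1, the steroid 21-hydroxylase, had 0.09 (adjusted p = 0.696).

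**Figure D5:**
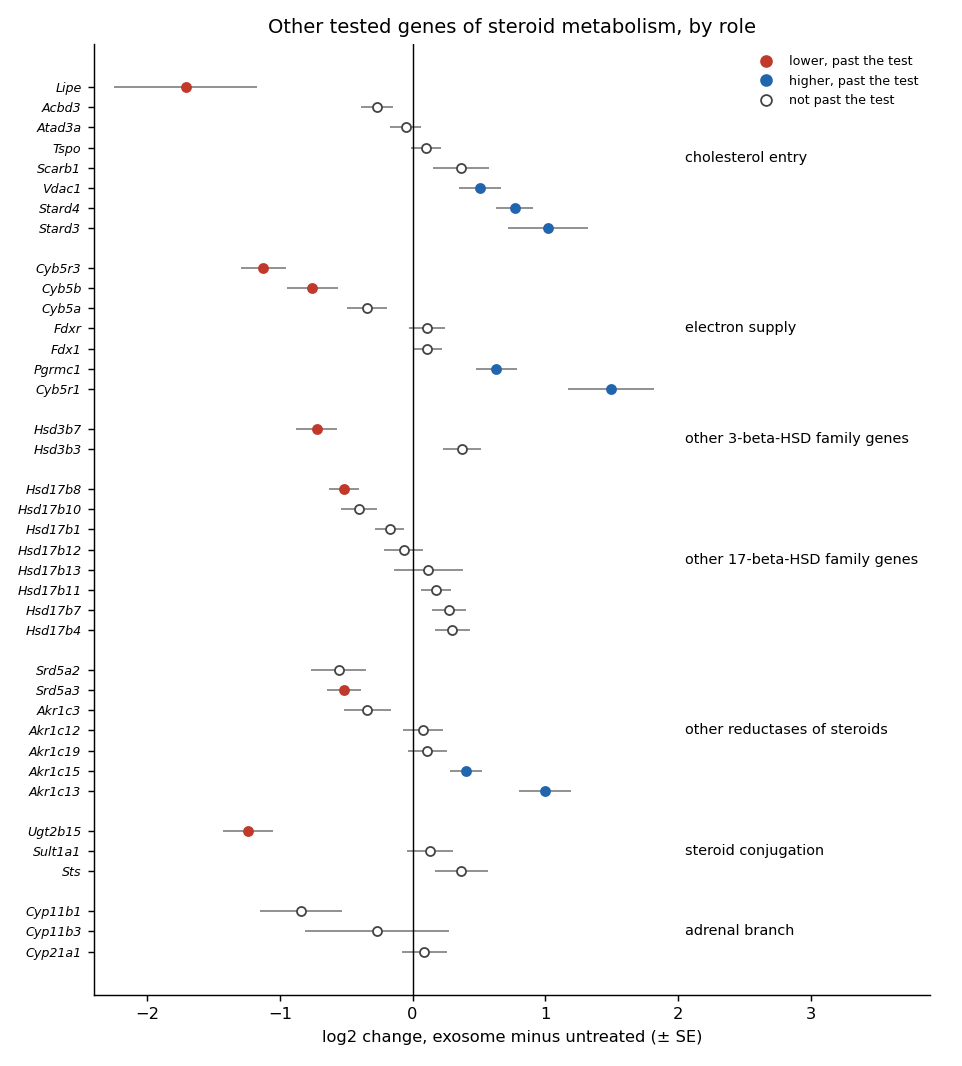
Change (exosome minus untreated, log2, ± SE, n = 3 per group) of tested genes that serve or surround steroid synthesis, grouped by role; red points fell, blue points rose and open points did not pass the test. By the brightest probe of each gene, calls in both directions stand side by side in the groups of cholesterol entry, electron supply and other reductases. Other probes of Stard4, Cyb5r1 and Pgrmc1 did not rise, and Lipe and Ugt2b15 were above background on 0 exosome arrays.

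Marker lists of other testis cells were measured on the same arrays, and their counts stand beside 29.2% lower and 14.6% higher among all genes. For each list the levels of its measured genes were summed on the linear scale, relative to the array's 75th percentile. Such a sum follows the brightest genes of its list and says little about the dim ones. The sum over 10 macrophage genes was 22.7 to 23.9 on untreated and 10.4 to 21.4 on exosome arrays. By limma 4 of 10 tested genes were lower and 0 higher (0 also at an unadjusted p below 0.05, and 2 lower and 1 higher with quantile normalization). Cd68 had the largest change of this list, −2.34 ± 1.74 (SE), and missed the test (adjusted p = 0.308). The sum over 7 genes of peritubular myoid cells was 44.8 to 48.2 against 28.8 to 35.7, with 3 of 7 lower. The sum over 10 Sertoli cell genes was 37.4 to 43.9 against 30.4 to 36.1, with 1 of 8 tested higher and 1 lower. Of these 10, 6 were above background on all 6 arrays, while Amh and Gata1 were so on 0 arrays. The sum over 7 endothelial genes was 0.878 to 0.995 against 1.21 to 1.497, with 2 of 5 tested higher and 2 lower. Of these 7, 4 were above background on all 6 arrays, while Tek and Tie1 were so on 0 arrays. The sum over 8 stromal progenitor genes was 67.5 to 70.02 against 66.5 to 68.4, overlapping, with 2 of 8 higher and 1 lower. The sum over 7 germ cell genes was 0.151 to 0.179 against 0.131 to 0.138, with 1 of 2 tested lower. Those 2, Prm2 and Tnp1, were above background on all 6 arrays, while Ddx4, Sycp3 and Prm1 were so on 0 arrays. The sum over 8 Leydig cell genes, which include Star, Cyp11a1, Hsd3b1, Cyp17a1 and Hsd17b3, was 75.6 to 84.8 and 74.4 to 88.1 and overlapped. Most of it came from Hsd3b1 and Star, with untreated log2 means of 5.64 and 4.78 against 0.50 for Cyp11a1. The fall of Cyp11a1 therefore hardly shows in that sum, and its overlap is no measure of Leydig cell content. The part of other cells in the changes of the members was not tested.

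The genes whose pattern over the 6 arrays was most like that of Cyp11a1, among 10970 compared, were Rhbdd3, Stap2 and C7h22orf23, each with Pearson's r of 0.998 or 0.999. Their changes were −0.78, −0.55 and −0.43. With 6 arrays in 2 groups that lie apart, such values are a description of shared group means.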

How the data were processed

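RNA of 6 samples was labelled with Cy3 and read on 1-colour Agilent arrays. Per the file headers, the intensity used, the processed signal, was made with Agilent Feature Extraction 11.0.1.1, which subtracts background and removes spatial trends on each array, and no step put the arrays on a common scale. The log2 table that the authors deposited has 1 median of 5.68 and 1 maximum of 16.99 in all columns. Each column correlated with its own array's log2 intensity at r of 0.996 or more. How it was normalized is not given in the sources used here, and it served as an alternative. Its results lay close to those of quantile normalization (1784 against 1766 genes lower by limma), so it is no separate check on them.

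Spots marked as outliers, 388 to 572 per array, were left out, spots of a probe were averaged in log2, and the 75th percentile over gene spots was subtracted. Probes well above background on at least 3 of 6 arrays were tested (20409 of 30367), and the brightest tested probe stood for a gene. Of the probes, 18005 were named through RefSeq accessions (GRCr8). The array was designed on rn4, so no positions are given except those of the RefSeq promoter windows. Tools were R 4.3.3 with limma 3.58.1 and Python 3.11.15. The files hold median spot signals, so normexp used these and the median background. limma was tested on simulated data.

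The members, the lists and the rule for named genes (all members, list genes past the test, and the 3 genes most like Cyp11a1) were chosen with earlier results of these data known. List genes that missed the test, other than the adrenal ones, were named for their known roles after their values were seen. A further list gene is counted but not reported here. Same-numbered samples did not deviate together (r of −0.09 to −0.02), so the numbers were not taken as pairs. The number of arrays limits the precision.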

Additional observations from a re-analysis of the deposited data

How the results depend on the processing

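Members kept their direction and their side of the threshold in all alternatives except these. Cyp17a1 turned to 0.20 under quantile normalization and 0.20 in the authors' deposited table. Srd5a1 missed the test there (−0.65 in both), as did Por (−0.26 in both), which left 3 members lower in each. The other probe of Hsd3b5, below background throughout, had 0.0015, and that of Srd5a1 −1.13 with no filter (adjusted p = 0.099). Over fits that left out 1 array, Srd5a1 ranged from −1.19 to −0.83 and Akr1c14 from −1.10 to −0.84, each missing the test at least once, and members lower numbered 4 or 5. The difference of Akr1c14 minus Srd5a1 turned to −0.36 with normexp, −0.35 after quantile normalization and −0.35 in the deposited table, and ranged from −0.24 to 0.24 when 1 array was left out.

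Genes higher numbered 2748 with median centring, 863 with no filter and 768 with the replicate block, against 1597, and 134 to 1725 when 1 array was left out (134 without untreated 2, 211 without untreated 3, 377 without exosome 1, 767 without exosome 3). Genes lower numbered 1766 under quantile normalization, 1863 with median centring and 1784 in the authors' table, against 3204, and 818 to 3292 when 1 array was left out (818 without untreated 2, 995 without untreated 3, 1403 without exosome 1). Other pathway genes higher numbered 11 with median centring, 4 with no filter, 3 with the replicate block and 4 with scan as a random block, against 7, and 0 to 8 when 1 array was left out. Those lower numbered 4 with median centring, against 8, and 2 to 11 when 1 array was left out. Each scan holds arrays of 1 group only, so the block for scan cannot take a scan effect out of the changes. With the replicate block 5 members fell, as without it, and it changed no member's call. Taking the 75th percentile over probes, which counts a probe spotted 10 times once, was added after seeing the data; it kept 5 members lower and gave 2079 genes higher and 2648 lower. Asking for all 6 arrays above background left Cyp17a1 untested. Dim signal limits Cyp17a1 and Hsd17b3. The cause of these changes was not tested.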
